A study of Mus musculus with 24 samples.

Results

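Hearts of Per2 KO mice that had 30 minutes of ischemia and then 60 minutes of reperfusion (I30R60) were compared with hearts of sham-operated Per2 KO mice. There were 3 arrays in each of these groups, which is 6 of the 24 arrays of the series, and each array carried total RNA from the left ventricle of a male mouse aged 12 to 16 weeks. Per2 KO mice carry the deletion in the germ line, so that both groups lack Per2 in all cells throughout life, and the strain is given as BL6C57. The labels describe the sham hearts both as untreated controls and as sham operated. Every mouse was anaesthetized and catheterized, and every heart was flushed with saline. The other groups were Per2 KO hearts after 30 minutes of ischemia without reperfusion (I30) or after 4 rounds of preconditioning in which the artery was closed and opened for 5 minutes each (IP0), and wildtype hearts in the same 4 states. All 18820 genes that a probe set paired with 1 symbol could measure were tested, and a gene with several probe sets was represented by its brightest one, judged by the mean of all 24 arrays. Below, KO stands for Per2 KO, values are log2 intensities, and a change is the mean of the KO I30R60 hearts minus the mean of the KO sham hearts, followed by ± its standard error from the fit.

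Per2 encodes a repressor of the circadian clock, which in heart muscle sets daily rhythms of metabolism. CLOCK and BMAL1 activate the Per and Cry genes through E-boxes, and the PER and CRY proteins then inhibit that activation. When blood returns to ischemic muscle, injured myocytes and vessel walls switch on early transcription factors, the endothelium displays selectins and adhesion molecules, and neutrophils enter the tissue. The question of the comparison is which transcripts differ from sham in a heart without Per2 after ischemia followed by reperfusion. The compared groups differ in both ischemia and reperfusion, and the part of reperfusion alone in a change was not tested.

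Log2 values of heart muscle transcripts were even over the 6 arrays. The log2 of the summed intensities of 9 ventricular muscle markers was 16.03, 16.10 and 16.10 in KO I30R60 hearts, against 16.08, 16.12 and 16.14 in KO sham hearts, and none of these genes passed the test, also at an unadjusted p. KO sham replicate 3 stood apart in atrial transcripts. Its log2 value of Myl7, the atrial regulatory myosin light chain, was 11.21, against 3.07 to 3.29 in the other 5 arrays, and the log2 sum of the 8 atrial markers was 10.87, 10.25 and 11.46 in KO I30R60 hearts, against 10.57, 10.74 and 14.19 in KO sham hearts. This heart also held the lowest of the 6 values for 312 of the 524 genes that rose, and KO I30R60 replicate 1 held the highest for 308 of them. Array weights estimated from the residuals were lowest in KO I30R60 replicate 1 and KO sham replicate 3, at 0.672 and 0.703 among the 6 arrays. The part of atrial tissue in any change was not tested, but values without replicate 3 are given wherever a call turns on it. The Per2 probe set had log2 values of 5.58, 5.99 and 6.25 in KO I30R60 hearts, against 5.69, 5.65 and 5.63 in KO sham hearts, a change of 0.28 ± 0.27 (adjusted p = 0.661). The position of this probe set relative to the deleted part is not given in the sources used here, so its level does not check the genotype.

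A total of 901 genes (4.79% of those tested) passed an adjusted p of 0.05 in limma, 524 higher (2.78%) and 377 lower (2.00%) in KO I30R60 than in KO sham hearts. The median change over all genes was -0.04. Counts in the gene lists below are to be read beside the shares of 2.78% and 2.00%. Rises were the larger changes. Of the genes that rose, 192 (1.02% of all genes) changed at least 2-fold and 36 at least 4-fold, with a median of 0.83, whereas 10 of the genes that fell (0.0531% of all genes) changed at least 2-fold and none 4-fold, with a median of -0.50. Together these 202 genes are 1.07% of those tested. In 518 of the rises and 375 of the falls the 3 KO I30R60 arrays lay wholly on one side of the 3 KO sham arrays, a pattern that 8.32% of all genes showed upward and 14.7% downward. With each array centred on its median, which shifts the median change of all genes to 0.01, the same test called 579 rises and 215 falls, so that rises made up 72.9% of the calls in place of 58.2%. Without KO I30R60 replicate 1 the call count was 475, without KO sham replicates 1, 2 and 3 it was 622, 627 and 555, and 346 genes (253 higher, 93 lower) were called in all 6 fits that left out 1 of these arrays. When changes were simulated on arrays of this spread, 86% of those of 2-fold and 38% of those of 1.5-fold were called, so that small changes were not fully detectable with 3 hearts a group.

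**Figure D1:**
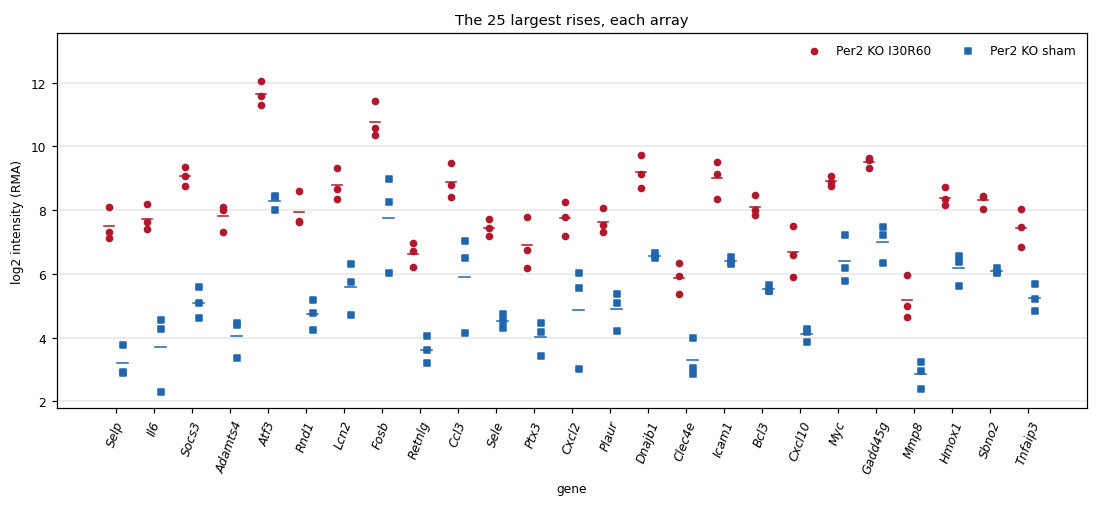
Log2 intensity of the 25 genes with the largest rise, one column per gene, with each KO I30R60 array as a red circle (left) and each KO sham array as a blue square (right), and bars at the group means. The red circles lie above the blue squares of the same gene in every column, and the distance is largest for Selp, at 4.31. Heights are to be compared within a gene only.

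The largest rise was that of a selectin. Selp encodes P-selectin, which tethers rolling leukocytes to the vessel wall, and it had log2 values of 8.08, 7.31 and 7.12 in KO I30R60 hearts, against 2.92, 2.90 and 3.78 in KO sham hearts. Every reperfused heart was more than 3 log2 units above every sham heart, and the change was 4.31 ± 0.46 (adjusted p = 9.15e-06). Sele, the E-selectin gene of activated endothelium, had 7.71, 7.42 and 7.19 in KO I30R60 hearts, against 4.75, 4.31 and 4.53 in KO sham hearts. Its groups lay apart as well, with a change of 2.91 ± 0.40 (adjusted p = 0.000131). Icam1, the ligand that arrests leukocytes through integrins, had 9.50, 9.13 and 8.35 in KO I30R60 hearts, against 6.38, 6.52 and 6.31 in KO sham hearts. The sham hearts were tightly grouped and the reperfused hearts spread over more than 1 log2 unit, with a change of 2.59 ± 0.29 (adjusted p = 1.43e-05). Among endothelial adhesion and leukocyte capture genes 8 of 29 measured genes rose, none fell and 21 did not pass the test (median 0.14), and with 1 array left out 5 to 7 rose (5 without KO sham replicate 1). The vessel-wall products Edn1, which encodes the constrictor endothelin 1, and Thbd, the thrombin receptor thrombomodulin, rose by 1.30 ± 0.27 (adjusted p = 0.00599) and 1.16 ± 0.11 (adjusted p = 3.36e-06). Of the markers of endothelium none of 12 measured genes rose, 2 fell and 10 did not pass the test (median 0.08), the falls being those of Egfl7 and Kdr, whose call was lost without each of 5 single arrays. The log2 sum of these markers was 12.79, 12.91 and 13.10 in KO I30R60 hearts, against 12.97, 12.95 and 12.92 in KO sham hearts. In bulk tissue a change in the number of cells of a type and a change in RNA per cell cannot be told apart.

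Cytokines of the acute phase followed. Il6, which drives the acute-phase response through gp130 and STAT3, had log2 values of 8.18, 7.39 and 7.63 in KO I30R60 hearts, against 4.56, 4.27 and 2.28 in KO sham hearts. KO sham replicate 3 was almost 2 log2 units under the other sham hearts, the groups did not overlap, and the change was 4.03 ± 0.47 (adjusted p = 2.27e-05). Socs3, the feedback inhibitor of this receptor pathway, had 9.36, 8.74 and 9.07 in KO I30R60 hearts, against 5.07, 5.59 and 4.62 in KO sham hearts. Its change was 3.97 ± 0.38 (adjusted p = 3.08e-06), and a second probe set of the gene changed by 1.66. The signalling parts of the pathway rose less: the receptor subunit gene Osmr by 1.18 ± 0.17 (adjusted p = 0.000202), the kinase gene Jak2 by 0.73 ± 0.10 (adjusted p = 0.000166) and the transcription factor gene Stat3 by 0.51 ± 0.09 (adjusted p = 0.00153). Of the IL-6 family and its signalling genes as a whole 9 of 31 measured genes rose, none fell and 22 did not pass the test (median 0.08). Tnf had 7.49, 6.71 and 5.86 in KO I30R60 hearts, against 4.89, 5.16 and 3.89 in KO sham hearts, and its reperfused hearts were widely spread, with a change of 2.04 ± 0.38 (adjusted p = 0.00239). Il1r1, the signalling receptor of interleukin 1, had 7.45, 7.28 and 7.42 in KO I30R60 hearts, against 6.51, 6.14 and 6.26 in KO sham hearts, and rose by 1.08 ± 0.14 (adjusted p = 7.8e-05). In the list of TNF, IL-1 and IL-17 ligands and receptors 11 of 37 measured genes rose, none fell and 26 did not pass the test (median 0.14).

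Several chemokines that draw neutrophils and monocytes were higher. Ccl3, a chemokine gene of activated macrophages, had log2 values of 9.46, 8.77 and 8.40 in KO I30R60 hearts, against 7.04, 6.51 and 4.15 in KO sham hearts. KO sham replicate 3 was more than 2 units under the other sham hearts, the groups did not overlap, and the change was 2.97 ± 0.53 (adjusted p = 0.00195). Cxcl1, a ligand of the neutrophil receptor CXCR2, had 8.60, 8.29 and 8.15 in KO I30R60 hearts, against 6.78, 6.69 and 5.42 in KO sham hearts. Replicate 3 was again the low sham heart, and the change was 2.05 ± 0.33 (adjusted p = 0.000714). Cxcl10, an interferon-inducible ligand of CXCR3, had 7.51, 6.59 and 5.90 in KO I30R60 hearts, against 4.17, 4.28 and 3.87 in KO sham hearts. Here the sham hearts were close together and the reperfused hearts spread widely, and the change was 2.56 ± 0.36 (adjusted p = 0.00019). Cxcl2, another ligand of CXCR2, changed by 2.89 ± 0.66 (adjusted p = 0.013), but by 2.64 (adjusted p = 0.0688) without KO I30R60 replicate 1 and 1.96 (adjusted p = 0.0843) without KO sham replicate 3. Of CXC chemokines and receptors 6 of 22 measured genes rose, none fell and 16 did not pass the test (median 0.25), and the number that rose was 2 without KO I30R60 replicate 1. For CC chemokines and receptors 7 of 32 measured genes rose (21.9%, beside 2.78% of all genes), none fell and 25 did not pass the test (median 0.07). The number that rose was 2 without KO I30R60 replicate 1, 3 without KO I30R60 replicate 2, 4 without KO sham replicate 1, 3 without KO sham replicate 2 and 4 without KO sham replicate 3.

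NF-kB is held in the cytoplasm by IkB proteins until these are degraded, and it then switches on the genes of its own inhibitors. Nfkbia, which encodes IkB-alpha, had log2 values of 10.11, 9.92 and 9.61 in KO I30R60 hearts, against 8.85, 8.92 and 8.33 in KO sham hearts. All reperfused hearts were above all sham hearts, with a change of 1.18 ± 0.16 (adjusted p = 0.000137). Nfkbie, the gene of IkB-epsilon, had 5.71, 5.69 and 5.71 in KO I30R60 hearts, against 4.56, 4.22 and 4.17 in KO sham hearts. Its reperfused hearts were nearly equal, and the change was 1.39 ± 0.21 (adjusted p = 0.00034). Tnfaip3, which encodes the ubiquitin-editing inhibitor A20, had 8.03, 7.47 and 6.84 in KO I30R60 hearts, against 5.22, 5.69 and 4.83 in KO sham hearts, a change of 2.20 ± 0.27 (adjusted p = 4.57e-05). Bcl3, an atypical IkB protein of the nucleus, had 8.47, 7.84 and 8.01 in KO I30R60 hearts, against 5.47, 5.64 and 5.45 in KO sham hearts, a change of 2.58 ± 0.22 (adjusted p = 1.01e-06). Birc3, Map3k8 and Zc3h12a, the last an RNase that degrades cytokine transcripts, rose by 1.46 ± 0.14 (adjusted p = 3.08e-06), 1.85 ± 0.21 (adjusted p = 1.43e-05) and 1.28 ± 0.16 (adjusted p = 5.11e-05). Among NF-kB subunits and feedback regulators 15 of 34 measured genes rose, none fell and 19 did not pass the test (median 0.42), the lowest count with 1 array left out being 11 without KO I30R60 replicate 1. Among Toll-like receptors and innate sensors 9 of 37 measured genes rose, none fell and 28 did not pass the test (median 0.13), and the number that rose was 5 without KO I30R60 replicate 1 and 5 without KO sham replicate 3. Among them were the adaptor gene Myd88 at 1.09 ± 0.13 (adjusted p = 4.49e-05), Casp4, the caspase that senses lipopolysaccharide in the cytosol, at 2.03 ± 0.22 (adjusted p = 9.15e-06), and Clec4e, a receptor for debris of dead cells, at 2.59 ± 0.36 (adjusted p = 0.00015).

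The promoters of 3 of these genes show where binding motifs of the factors named above stand relative to the genes' starts. They were chosen among promoters that hold a match, so they are not typical of the genes that rose. The sequences are the 250 bases before the start of each gene, 5′ to 3′ on the strand of the gene, from RefSeq on GRCm38.p6, and capitals mark a match to TGANTCA (AP-1) or to the NF-kB consensus on either strand. For Il6 (chr5:30012864-30013113, plus strand) the AP-1 match begins 249 bases and the NF-kB match 44 bases before the start. For Cxcl10 (chr5:92348890-92349139, minus strand) NF-kB matches begin 159 and 103 bases and an AP-1 match 74 bases before it, and for Nfkbia (chr12:55492648-55492897, minus strand) the NF-kB match begins 29 bases before it.
Il6: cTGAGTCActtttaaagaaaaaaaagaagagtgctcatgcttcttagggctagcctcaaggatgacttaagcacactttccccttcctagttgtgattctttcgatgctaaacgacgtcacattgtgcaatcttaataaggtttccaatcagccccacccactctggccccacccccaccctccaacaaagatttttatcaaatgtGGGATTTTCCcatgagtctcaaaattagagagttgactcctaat
Cxcl10: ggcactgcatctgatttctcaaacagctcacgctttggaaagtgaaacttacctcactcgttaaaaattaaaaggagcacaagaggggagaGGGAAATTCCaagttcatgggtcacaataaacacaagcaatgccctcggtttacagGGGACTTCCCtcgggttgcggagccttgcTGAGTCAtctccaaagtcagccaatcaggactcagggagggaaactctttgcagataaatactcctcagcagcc
Nfkbia: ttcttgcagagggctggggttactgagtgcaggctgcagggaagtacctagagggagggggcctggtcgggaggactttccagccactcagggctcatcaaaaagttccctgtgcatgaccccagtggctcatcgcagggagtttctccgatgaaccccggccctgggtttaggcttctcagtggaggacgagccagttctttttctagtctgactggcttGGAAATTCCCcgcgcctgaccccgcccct

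Promoters could be matched for 147 of the 192 genes that rose at least 2-fold and for 14739 of all genes tested, counting 250 bases before to 50 bases after the start. The form of the NF-kB site chosen first was present in the promoters of 23 of the 147 genes (15.6%) and in 4.84% of all promoters. The NF-kB consensus used above, chosen after the shares of the first form had been seen, was present in 30 of the 147 (20.4%) and in 5.77% of all. It allows as many sequences as the first form, and neither form contains the other. The AP-1 motif was present in 21 of the 147 (14.3%) and in 7.92% of all. Over all genes that rose, the first NF-kB form stood in 9.85%, the consensus in 13.4% and the AP-1 motif in 12.6% of promoters. Over the genes that fell these shares were 6.21%, 5.56% and 5.23%. The heat shock element stood in 0.505% of the promoters of genes that rose, in 0.654% of those that fell and in 0.583% of all. Both strands were searched, and a promoter with several matches was counted once. A cyclic AMP response element (TGACGTCA) stood in 4.29% of the promoters of genes that rose, in 3.27% of those that fell and in 2.77% of all. A match describes letters in this window and is not a measured binding site.

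Most transcripts that mark neutrophils rose. S100a8, which with S100a9 encodes the neutrophil protein calprotectin, had log2 values of 5.66, 5.21 and 5.68 in KO I30R60 hearts, against 3.87, 3.46 and 3.31 in KO sham hearts. The lowest reperfused heart was more than 1 unit above the highest sham heart, and the change was 1.97 ± 0.34 (adjusted p = 0.00123). For S100a9 the values were 6.76, 5.90 and 6.80 in KO I30R60 hearts, against 4.80, 4.68 and 4.54 in KO sham hearts, with a change of 1.82 ± 0.32 (adjusted p = 0.00142). Retnlg, a resistin-like protein gene of granulocytes, had 6.71, 6.21 and 6.95 in KO I30R60 hearts, against 4.04, 3.61 and 3.21 in KO sham hearts. The groups lay more than 2 units apart, and the change was 3.00 ± 0.50 (adjusted p = 0.000857). Lcn2, which encodes the iron-siderophore trap lipocalin 2, had 8.34, 8.67 and 9.32 in KO I30R60 hearts, against 5.75, 6.31 and 4.71 in KO sham hearts, and Mmp8, the neutrophil collagenase gene, had 4.99, 4.63 and 5.96 in KO I30R60 hearts, against 3.23, 2.96 and 2.38 in KO sham hearts. Their changes were 3.19 ± 0.46 (adjusted p = 0.000202) and 2.34 ± 0.44 (adjusted p = 0.0027), and in both the groups lay apart. Of the neutrophil markers 10 of 15 measured genes rose, none fell and 5 did not pass the test (median 1.25), and the number was 6 without KO sham replicate 3. The log2 of their summed intensities was 9.82, 9.65 and 10.35 in KO I30R60 hearts, against 8.12, 8.13 and 7.59 in KO sham hearts, so that every reperfused heart was above every sham heart, and the part of neutrophils in the other rises was not tested. Lcn2 is also made by stressed heart muscle and endothelium. In limma none of 15 monocyte and macrophage markers, 10 lymphocyte markers, 7 platelet markers or 10 fibroblast markers passed the test, with 3, 2, 3 and 2 of them at an unadjusted p under 0.05. Over all 18820 genes tested, 3352 had such a p. The log2 sums of the monocyte and macrophage markers were 11.22, 11.46 and 11.28 in KO I30R60 hearts, against 11.14, 11.05 and 11.16 in KO sham hearts. For the lymphocyte markers they were 6.76, 6.74 and 6.80 in KO I30R60 hearts, against 6.51, 6.62 and 6.73 in KO sham hearts. The groups did not overlap in either list, but did in that of the fibroblast markers. Those of the platelet markers were 8.78, 8.32 and 8.71 in KO I30R60 hearts, against 8.16, 7.90 and 7.95 in KO sham hearts, so that these groups did not overlap, and the number that rose was 3 without KO I30R60 replicate 2 and 1 without KO sham replicate 3. Platelets also hold P-selectin, and their part in the change of Selp was not tested.

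**Figure D2:**
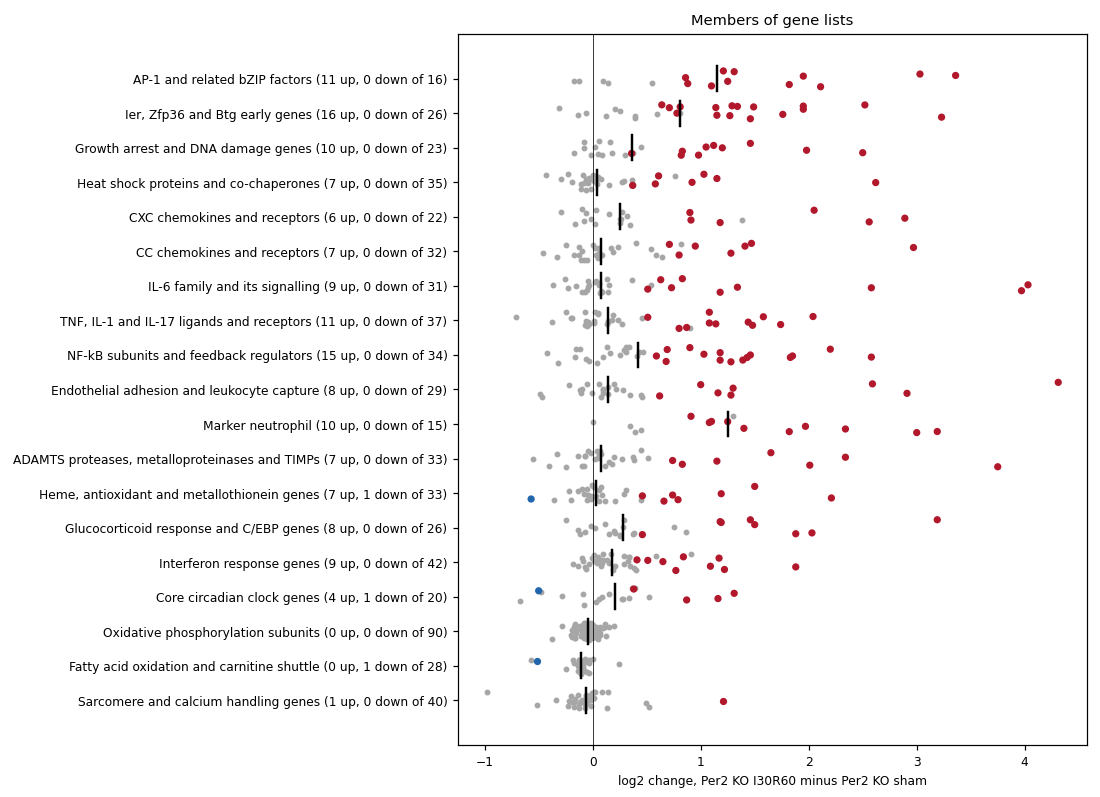
Change of each member of 19 gene lists, KO I30R60 minus KO sham on the log2 scale, 1 point per gene, with called rises in red, called falls in blue, genes that did not pass in grey and a black bar at the list's median. The medians lie farthest to the right for neutrophil markers (1.25) and AP-1 factors (1.15), and at -0.04 for oxidative phosphorylation subunits.

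Early transcription factors of the AP-1 family, which couple injury signals to transcription within minutes, were among the largest changes. Fosb had log2 values of 11.41, 10.57 and 10.35 in KO I30R60 hearts, against 8.96, 8.26 and 6.03 in KO sham hearts. The sham hearts were spread over almost 3 units with replicate 3 lowest, the groups did not overlap, and the change was 3.03 ± 0.49 (adjusted p = 0.000648). Fos had 10.24, 9.45 and 9.95 in KO I30R60 hearts, against 7.93, 8.19 and 7.21 in KO sham hearts, a change of 2.11 ± 0.36 (adjusted p = 0.00109). Jun had 11.30, 10.68 and 10.92 in KO I30R60 hearts, against 9.33, 8.99 and 9.11 in KO sham hearts. Both groups were compact and lay more than 1 unit apart, with a change of 1.82 ± 0.18 (adjusted p = 3.34e-06). Atf3, a stress-induced member that dimerizes with JUN proteins, had 12.05, 11.31 and 11.58 in KO I30R60 hearts, against 8.45, 8.41 and 8.01 in KO sham hearts, and rose by 3.36 ± 0.28 (adjusted p = 6.99e-07). Jund, Fosl2, Maff and Mafk rose by 1.10 ± 0.13 (adjusted p = 1.81e-05), 1.21 ± 0.18 (adjusted p = 0.00026), 1.95 ± 0.33 (adjusted p = 0.00103) and 0.86 ± 0.13 (adjusted p = 0.000327). Of AP-1 and related bZIP factors 11 of 16 measured genes rose, none fell and 5 did not pass the test (median 1.15), and 10 or 11 rose with any 1 of the 6 arrays left out.

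Other genes of the early response rose with them. Myc had log2 values of 9.08, 8.75 and 8.89 in KO I30R60 hearts, against 7.22, 6.18 and 5.76 in KO sham hearts, a change of 2.52 ± 0.29 (adjusted p = 1.77e-05). Rnd1, which encodes a small GTPase that loosens cell adhesion, had 8.61, 7.65 and 7.61 in KO I30R60 hearts, against 4.76, 5.18 and 4.25 in KO sham hearts, a change of 3.23 ± 0.32 (adjusted p = 3.36e-06). Ier3 and Ier5, both named for their immediate early response, rose by 1.49 ± 0.14 (adjusted p = 3.1e-06) and 1.95 ± 0.22 (adjusted p = 1.43e-05). Zfp36, whose protein tristetraprolin destabilizes cytokine transcripts, rose by 1.46 ± 0.19 (adjusted p = 7.02e-05), and the helix-loop-helix gene Id2 by 1.27 ± 0.19 (adjusted p = 0.00034). In the list of Ier, Zfp36 and Btg early genes 16 of 26 measured genes rose, none fell and 10 did not pass the test (median 0.81). Among NR4A, EGR and KLF factors 4 of 19 measured genes rose, none fell and 15 did not pass the test (median 0.17), and the number that rose was 2 without KO I30R60 replicate 1, 2 without KO I30R60 replicate 3 and 2 without KO sham replicate 3. Within it Egr1 and Klf6 rose by 0.64 ± 0.11 (adjusted p = 0.00175) and 0.93 ± 0.12 (adjusted p = 6.5e-05). Nr4a1, an orphan nuclear receptor gene, had 10.75, 10.10 and 10.40 in KO I30R60 hearts, against 10.08, 10.26 and 9.79 in KO sham hearts. Its groups overlapped, and the change of 0.37 ± 0.24 (adjusted p = 0.451) did not pass the test.

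Proteases of the matrix and their inhibitors were among the rises. Adamts1 and Adamts4 cleave proteoglycans of the matrix. Adamts1 had log2 values of 9.96, 9.86 and 10.10 in KO I30R60 hearts, against 8.12, 8.04 and 7.73 in KO sham hearts. Both groups were compact, and the change was 2.01 ± 0.16 (adjusted p = 5.28e-07). Adamts4 had 8.11, 7.30 and 8.01 in KO I30R60 hearts, against 4.38, 4.45 and 3.35 in KO sham hearts, a change of 3.75 ± 0.36 (adjusted p = 3.08e-06). Adamts9 rose by 1.15 ± 0.17 (adjusted p = 0.00033), and 3 other probe sets of this gene changed by 0.83, 1.10 and 0.99. The inhibitors Timp1 and Timp3 rose by 1.65 ± 0.25 (adjusted p = 0.000344) and 0.74 ± 0.12 (adjusted p = 0.000834), and Mmp13, a collagenase gene, by 0.83 ± 0.17 (adjusted p = 0.00501). Of ADAMTS proteases, metalloproteinases and TIMPs 7 of 33 measured genes rose, none fell and 26 did not pass the test (median 0.08). In the matricellular, coagulation and fibrinolysis list 10 of 35 measured genes rose, none fell and 25 did not pass the test (median 0.29). Its largest change was that of Plaur, the urokinase receptor gene, with 8.05, 7.31 and 7.54 in KO I30R60 hearts, against 5.38, 5.08 and 4.19 in KO sham hearts. The change was 2.75 ± 0.32 (adjusted p = 2.27e-05), while F2r, a thrombin receptor gene, rose by 0.46 ± 0.09 (adjusted p = 0.00578) and Hbegf, a growth factor gene, by 1.45 ± 0.23 (adjusted p = 0.000615).

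Genes that answer protein, DNA and oxidative damage rose in part. Dnajb1, the HSP40 co-chaperone that heat shock factor induces, had log2 values of 9.72, 8.70 and 9.14 in KO I30R60 hearts, against 6.65, 6.50 and 6.55 in KO sham hearts. The sham hearts were nearly equal, and the change was 2.62 ± 0.26 (adjusted p = 4.66e-06). Dnajb4, Dnaja4 and Hspb1 rose by 0.61 ± 0.11 (adjusted p = 0.00131), 0.58 ± 0.11 (adjusted p = 0.00395) and 1.03 ± 0.17 (adjusted p = 0.000648). For Hspb1 2 other probe sets changed by 0.14 and 1.03. Of heat shock proteins and co-chaperones 7 of 35 measured genes rose (20%, beside 2.78% of all genes), none fell and 28 did not pass the test (median 0.04). The number that rose was 4 without KO I30R60 replicate 1, 4 without KO I30R60 replicate 3 and 4 without KO sham replicate 3. Gadd45g, a stress sensor that activates p38 and JNK kinases, had 9.58, 9.32 and 9.62 in KO I30R60 hearts, against 7.48, 7.21 and 6.33 in KO sham hearts, a change of 2.50 ± 0.22 (adjusted p = 1.19e-06), and Gadd45a and Gadd45b rose by 1.12 ± 0.19 (adjusted p = 0.00103) and 1.98 ± 0.29 (adjusted p = 0.000302). Among growth arrest and DNA damage genes 10 of 23 measured genes rose, none fell and 13 did not pass the test (median 0.36), and the number that rose was 5 without KO I30R60 replicate 1. Ppp1r15a, which ends the block of translation in the integrated stress response, and Atf4, its main transcription factor, rose by 1.40 ± 0.16 (adjusted p = 1.69e-05) and 0.61 ± 0.10 (adjusted p = 0.00123), and Chac1 by 1.14 ± 0.27 (adjusted p = 0.0196), or by 0.93 (adjusted p = 0.0949) without KO I30R60 replicate 2 and 1.02 (adjusted p = 0.0902) without KO sham replicate 3. These 3 were the rises (9.68%, beside 2.78% of all genes) in a list of 31 genes of the integrated stress and unfolded protein response (median 0.06).

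Heme oxygenase and metallothioneins rose as well. Hmox1, which degrades heme, had log2 values of 8.71, 8.15 and 8.33 in KO I30R60 hearts, against 6.56, 6.38 and 5.61 in KO sham hearts. All reperfused hearts were above all sham hearts, and the change was 2.21 ± 0.35 (adjusted p = 0.000645). Mt1 had 11.29, 11.25 and 11.33 in KO I30R60 hearts, against 10.27, 10.44 and 9.61 in KO sham hearts. Its reperfused hearts were nearly equal, and the change was 1.19 ± 0.16 (adjusted p = 8.41e-05). Mt2 had 12.60, 12.79 and 12.72 in KO I30R60 hearts, against 11.73, 11.86 and 10.03 in KO sham hearts, a change of 1.50 ± 0.30 (adjusted p = 0.0052), which without KO sham replicate 3 was 0.91 (adjusted p = 0.0055). Txnrd1, a thioredoxin reductase gene, rose by 0.79 ± 0.13 (adjusted p = 0.000648). Of heme, antioxidant and metallothionein genes 7 of 33 measured genes rose, 1 fell and 25 did not pass the test (median 0.03), and the number that rose was 4 without KO sham replicate 3. The fall was that of Gpx3, a secreted glutathione peroxidase gene, at -0.57 ± 0.15 (adjusted p = 0.0282), or -0.56 (adjusted p = 0.0956) without KO I30R60 replicate 1, -0.55 (adjusted p = 0.0788) without KO I30R60 replicate 2, -0.61 (adjusted p = 0.0505) without KO I30R60 replicate 3 and -0.36 (adjusted p = 0.157) without KO sham replicate 3. In the list of glucocorticoid response and C/EBP genes 8 of 26 measured genes rose, none fell and 18 did not pass the test (median 0.28). Cebpd, a C/EBP factor of the acute phase, had 6.69, 6.58 and 6.78 in KO I30R60 hearts, against 4.65, 5.01 and 4.75 in KO sham hearts, a change of 1.88 ± 0.17 (adjusted p = 1.8e-06). Fkbp5, a co-chaperone of the glucocorticoid receptor, had 8.42, 8.73 and 8.95 in KO I30R60 hearts, against 7.10, 7.55 and 5.37 in KO sham hearts. KO sham replicate 3 was the low heart, and the change of 2.03 ± 0.44 (adjusted p = 0.00906) was 1.37 (adjusted p = 0.0581) without KO sham replicate 3.

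Some partners of Per2 in the clock changed. Cry1, which encodes the repressor that pairs with PER proteins, had log2 values of 6.31, 6.40 and 6.39 in KO I30R60 hearts, against 5.57, 5.79 and 5.10 in KO sham hearts. The reperfused hearts were nearly equal and above all sham hearts, and the change was 0.87 ± 0.16 (adjusted p = 0.00233). Bhlhe40, a repressor that competes for E-boxes, had 8.69, 8.45 and 8.62 in KO I30R60 hearts, against 7.47, 7.43 and 7.36 in KO sham hearts, a change of 1.16 ± 0.17 (adjusted p = 0.000226). Csnk1d, the casein kinase 1 delta gene whose product phosphorylates PER proteins, had 8.54, 8.32 and 8.50 in KO I30R60 hearts, against 8.08, 8.12 and 8.04 in KO sham hearts, a change of 0.38 ± 0.08 (adjusted p = 0.00614). Ciart, a repressor of CLOCK and BMAL1, had 7.07, 7.24 and 7.00 in KO I30R60 hearts, against 5.44, 6.24 and 5.71 in KO sham hearts. All reperfused hearts were above all sham hearts, with a change of 1.31 ± 0.35 (adjusted p = 0.0333). Without single arrays its change was 1.33 (adjusted p = 0.0896) without KO I30R60 replicate 1, 1.24 (adjusted p = 0.0943) without KO I30R60 replicate 2, 1.36 (adjusted p = 0.066) without KO I30R60 replicate 3, 1.13 (adjusted p = 0.133) without KO sham replicate 1 and 1.27 (adjusted p = 0.0999) without KO sham replicate 3. A second probe set of Ciart changed by 1.13. Arntl2, the paralog of BMAL1, was the gene that fell, at -0.50 ± 0.13 (adjusted p = 0.0368), and without single arrays it was -0.56 (adjusted p = 0.0543) without KO I30R60 replicate 1, -0.46 (adjusted p = 0.111) without KO I30R60 replicate 2, -0.48 (adjusted p = 0.105) without KO I30R60 replicate 3, -0.45 (adjusted p = 0.126) without KO sham replicate 1 and -0.48 (adjusted p = 0.106) without KO sham replicate 2. Of core circadian clock genes 4 of 20 measured genes rose (20%, beside 2.78% of all genes) and 1 fell (5%, beside 2.00%). The other 15 did not pass the test (median 0.21). Clock itself had 8.21, 7.99 and 8.13 in KO I30R60 hearts, against 8.48, 8.47 and 8.22 in KO sham hearts, a change of -0.28 ± 0.10 (adjusted p = 0.124), and Cry2 changed by 0.34 ± 0.17 (adjusted p = 0.324). Among transcription factors and other outputs of the clock 5 of 15 measured genes rose, none fell and 10 did not pass the test (median 0.36), among them Nfil3 at 1.31 ± 0.24 (adjusted p = 0.00219), Wee1, a mitotic kinase gene, at 0.90 ± 0.18 (adjusted p = 0.00384) and Lonrf3 at 1.20 ± 0.23 (adjusted p = 0.00347).

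The promoter of Ciart is shown because it holds 3 copies of the E-box through which the clock acts. The window is the 250 bases before the start on GRCm38.p6 (chr3:95882229-95882478, minus strand, from RefSeq), 5′ to 3′ on the strand of the gene, with each CACGTG in capitals, and the copies begin 116, 58 and 44 bases before the start. At least 1 CACGTG stood in 12.4% of the promoters of genes that rose, in 10.5% of those that fell and in 9.57% of all.
Ciart: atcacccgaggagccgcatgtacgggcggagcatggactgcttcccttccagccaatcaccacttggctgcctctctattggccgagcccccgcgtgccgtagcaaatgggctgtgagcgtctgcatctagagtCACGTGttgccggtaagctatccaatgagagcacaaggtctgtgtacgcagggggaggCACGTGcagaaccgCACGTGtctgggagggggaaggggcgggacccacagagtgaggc

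Lists of energy metabolism and contraction are set beside the shares of all genes, 2.78% that rose and 2.00% that fell. Most of these lists are so short that a count of none or 1 lies near those shares. None of 90 oxidative phosphorylation subunits passed the test in limma (median -0.04), and 12 of them had an unadjusted p under 0.05. The same held for 20 PPAR-alpha targets (median -0.06, 3 at an unadjusted p under 0.05), 23 genes of branched-chain amino acid degradation (median -0.10, 4 such genes) and 32 genes of lipid droplets and lipolysis (median -0.04, 2 such genes). Over all 18820 genes tested, 3352 had an unadjusted p under 0.05 in limma. Among fatty acid oxidation and carnitine shuttle genes none of 28 measured genes rose, 1 fell and 27 did not pass the test (median -0.11), although 14 of the 28 had all reperfused hearts below all sham hearts, a pattern of 14.7% of all genes. The one that passed was Cpt1a, which encodes the gate of fatty acid entry into mitochondria, with 8.01, 8.13 and 8.07 in KO I30R60 hearts, against 8.42, 8.56 and 8.79 in KO sham hearts. The change was -0.52 ± 0.11 (adjusted p = 0.0063). In the list of glucose entry, glycolysis and lactate export 3 of 35 measured genes rose (8.57%), none fell and 32 did not pass the test (median -0.05). These were Pfkfb3, which makes the activator of phosphofructokinase, with 8.12, 7.90 and 7.72 in KO I30R60 hearts, against 6.17, 6.18 and 5.80 in KO sham hearts, then the glucose transporter gene Slc2a3 and the lactate exporter gene Slc16a3. Their changes were 1.86 ± 0.24 (adjusted p = 6.58e-05), 1.18 ± 0.23 (adjusted p = 0.00328) and 0.91 ± 0.16 (adjusted p = 0.00149). Entpd1, which makes AMP from extracellular ATP, and Ada, which removes adenosine, were the rises among 13 genes of adenosine production, uptake and receptors, at 0.65 ± 0.12 (adjusted p = 0.00271) and 1.19 ± 0.24 (adjusted p = 0.00505). Of sarcomere and calcium handling genes 1 of 40 measured genes rose, none fell and 39 did not pass the test (median -0.07), the rise being that of Xirp1, a gene of intercalated discs, with 10.78, 10.39 and 10.67 in KO I30R60 hearts, against 9.44, 9.38 and 9.38 in KO sham hearts. That change was 1.21 ± 0.13 (adjusted p = 1.33e-05), and Nppb, which encodes the stress peptide BNP, rose by 0.78 ± 0.19 (adjusted p = 0.0204), or by 0.77 (adjusted p = 0.0655) without KO I30R60 replicate 1, 0.54 (adjusted p = 0.114) without KO I30R60 replicate 3, 0.73 (adjusted p = 0.0741) without KO sham replicate 2 and 0.74 (adjusted p = 0.0749) without KO sham replicate 3.

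**Figure D3:**
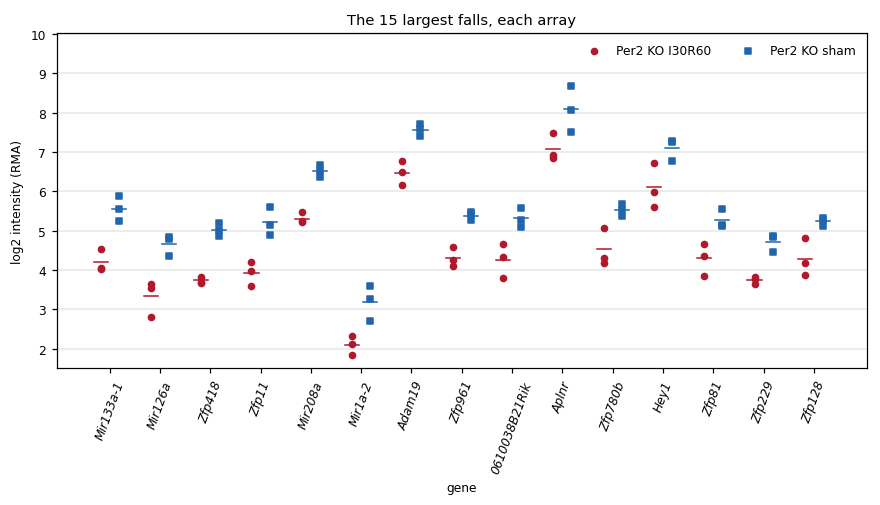
Log2 intensity of the 15 genes with the largest fall, with KO I30R60 arrays as red circles (left) and KO sham arrays as blue squares (right) and bars at the group means. All red circles lie below the blue squares of the same gene, the largest change being that of Mir133a-1 at -1.34, and 4 of the 15 genes are microRNA genes and 7 are numbered zinc finger genes.

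Of 306 microRNA genes 4 fell (1.31%, beside 2.00% of all genes), 1 rose and 301 did not pass the test (median -0.02). In the list of 24 heart muscle microRNA genes 3 fell (12.5%), none rose and 21 did not pass (median -0.08). Mir133a-1 and Mir1a-2, which lie beside each other in the genome, encode microRNAs of striated muscle. Mir133a-1 had log2 values of 4.06, 4.53 and 4.03 in KO I30R60 hearts, against 5.54, 5.23 and 5.87 in KO sham hearts. All reperfused hearts were below all sham hearts, with a change of -1.34 ± 0.23 (adjusted p = 0.00115). Mir1a-2 had 2.31, 2.11 and 1.84 in KO I30R60 hearts, against 2.71, 3.26 and 3.60 in KO sham hearts, a change of -1.10 ± 0.20 (adjusted p = 0.0023). All of these values lie below 4.44, the median of all values on the arrays, as do the KO I30R60 values of Mir126a. Without detection calls, such dim probe sets could not be separated from background. Mir208a, which lies within the alpha myosin heavy chain gene Myh6, had 5.24, 5.21 and 5.46 in KO I30R60 hearts, against 6.35, 6.52 and 6.67 in KO sham hearts. All reperfused hearts were again below all sham hearts, and the change was -1.21 ± 0.26 (adjusted p = 0.00922). Mir126a, a microRNA gene of endothelium, had 2.81, 3.55 and 3.65 in KO I30R60 hearts, against 4.79, 4.84 and 4.35 in KO sham hearts, a change of -1.32 ± 0.26 (adjusted p = 0.00367). It lies within Egfl7, an endothelial gene that also fell, with 8.01, 8.40 and 8.53 in KO I30R60 hearts, against 8.92, 9.04 and 9.09 in KO sham hearts and a change of -0.71 ± 0.12 (adjusted p = 0.00129). Mib1, a gene that spans Mir133a-1 and Mir1a-2, did not pass the test (adjusted p = 0.919). Mir133a-1hg also spans both and had no measured value. Spanning genes were found by position without regard to strand, so the transcript that carries this pair may not have been tested. One microRNA gene rose, Mir505, by 0.56 ± 0.14 (adjusted p = 0.026), or by 0.60 (adjusted p = 0.0544) without KO I30R60 replicate 1, 0.47 (adjusted p = 0.113) without KO I30R60 replicate 3, 0.58 (adjusted p = 0.0589) without KO sham replicate 2 and 0.47 (adjusted p = 0.123) without KO sham replicate 3. Whether these probe sets measure the precursor or the mature molecule is not given in the sources used here.

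The mature products of Mir126a, Mir208a and Mir505 are shown, from RefSeq on GRCm38.p6, 5′ to 3′, with the seed (bases 2 to 8), which pairs with target transcripts, in capitals. miR-126a-3p lies at chr2:26591402-26591423 on the plus strand, miR-208a-3p at chr14:54949072-54949093 and miR-208a-5p at chr14:54949107-54949128 on the minus strand, and miR-505-3p at chrX:60394416-60394437 and miR-505-5p at chrX:60394451-60394473 on the minus strand. No seed is shared among the 5.
mmu-miR-126a-3p: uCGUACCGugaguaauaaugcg
mmu-miR-208a-3p: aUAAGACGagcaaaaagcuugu
mmu-miR-208a-5p: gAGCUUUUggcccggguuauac
mmu-miR-505-3p: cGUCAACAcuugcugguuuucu
mmu-miR-505-5p: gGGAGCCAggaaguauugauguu

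Zinc finger genes named Zfp and a number held 46 of the 377 falls. Many such genes encode DNA-binding repressors that occur in clusters of near copies, so that probe sets may be shared between neighbours. Of 313 measured, 46 fell, 4 rose and 263 did not pass the test (median -0.25), which is 14.7% of the list that fell against 2.00% of all genes. With each array centred on its median 35 fell and 4 rose, and the number that fell was 21 without KO I30R60 replicate 1, 24 without KO sham replicate 1 and 24 without KO sham replicate 3. Zfp418 had log2 values of 3.67, 3.82 and 3.68 in KO I30R60 hearts, against 5.18, 4.87 and 5.02 in KO sham hearts. The groups lay more than 1 unit apart, with a change of -1.30 ± 0.17 (adjusted p = 8.41e-05). Zfp11 had 3.97, 4.21 and 3.59 in KO I30R60 hearts, against 4.89, 5.15 and 5.61 in KO sham hearts, a change of -1.29 ± 0.17 (adjusted p = 0.000106), and Zfp961 had 4.26, 4.58 and 4.09 in KO I30R60 hearts, against 5.47, 5.41 and 5.26 in KO sham hearts, a change of -1.07 ± 0.18 (adjusted p = 0.000857). Zfp113 and Zfp866 fell by 0.87 and 0.63 (adjusted p = 0.00152 and 0.00172). The genes that rose were Zfp36, which binds RNA, Zfp46 and Zfp655, at 1.02 ± 0.19 (adjusted p = 0.00239) and 0.47 ± 0.08 (adjusted p = 0.000857), and Zfp948, which is named only because it completes the count, at 0.59 ± 0.16 (adjusted p = 0.0396), or 0.51 (adjusted p = 0.16) without KO I30R60 replicate 1, 0.57 (adjusted p = 0.106) without KO I30R60 replicate 3, 0.65 (adjusted p = 0.0597) without KO sham replicate 2 and 0.37 (adjusted p = 0.21) without KO sham replicate 3.

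Among the other named falls were Adam19, at -1.09 ± 0.25 (adjusted p = 0.0115), and 0610038B21Rik, at -1.05 ± 0.21 (adjusted p = 0.00506). Kdr and Hey1 also fell, but neither kept its call with every single array left out. Kdr, the main receptor of VEGF, had log2 values of 8.35 ± 0.29 in KO I30R60 hearts and 9.03 ± 0.03 in KO sham hearts (mean and SD, n = 3 each). All reperfused hearts were below all sham hearts, the change was -0.69 ± 0.18 (adjusted p = 0.0325), and it was -0.61 (adjusted p = 0.134) without KO I30R60 replicate 1, -0.59 (adjusted p = 0.12) without KO I30R60 replicate 2, -0.68 (adjusted p = 0.0878) without KO sham replicate 1, -0.70 (adjusted p = 0.0749) without KO sham replicate 2 and -0.68 (adjusted p = 0.0901) without KO sham replicate 3. Hey1, a target of Notch, had 5.59, 5.98 and 6.73 in KO I30R60 hearts, against 7.24, 7.28 and 6.76 in KO sham hearts. The groups nearly touched, the change was -0.99 ± 0.24 (adjusted p = 0.0191), and it was -0.74 (adjusted p = 0.125) without KO I30R60 replicate 1, -0.93 (adjusted p = 0.0634) without KO I30R60 replicate 2, -0.92 (adjusted p = 0.0745) without KO sham replicate 1 and -0.90 (adjusted p = 0.0806) without KO sham replicate 2. The call of Egfl7, described above, was kept whichever of the 6 arrays was left out.

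Small nucleolar RNAs guide the modification of ribosomal RNA, and most lie in introns of other genes. Of 59 measured, 9 rose (15.3%, beside 2.78% of all genes), none fell and 50 did not pass the test (median 0.10). The number that rose was 3 without KO sham replicate 1. Snora20 had log2 values of 5.42, 5.10 and 5.16 in KO I30R60 hearts, against 3.98, 3.75 and 3.97 in KO sham hearts. The groups lay more than 1 unit apart, and the change was 1.33 ± 0.18 (adjusted p = 0.000137). Snora23 and Snord85 rose by 0.54 ± 0.08 (adjusted p = 0.000517) and 0.97 ± 0.15 (adjusted p = 0.000496). Snord14e, which lies within the heat shock gene Hspa8, had 8.72, 8.51 and 8.89 in KO I30R60 hearts, against 7.65, 7.83 and 8.20 in KO sham hearts, a change of 0.81 ± 0.19 (adjusted p = 0.0157) that was 0.81 (adjusted p = 0.0577) without KO I30R60 replicate 1, 0.72 (adjusted p = 0.072) without KO I30R60 replicate 3, 0.69 (adjusted p = 0.0846) without KO sham replicate 1 and 0.78 (adjusted p = 0.0579) without KO sham replicate 2. Of the 5 host genes of called small nucleolar RNAs that could be tested (Eif5, Hspa8, Ipo7, Rps12 and Tcp1), none passed, with changes of -0.01 to 0.22 and adjusted p values of 0.244 to 0.989.

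Of interferon response genes 9 of 42 measured genes rose (21.4%, beside 2.78% of all genes), none fell and 33 did not pass the test (median 0.18). The number that rose was 5 without KO I30R60 replicate 1, 4 without KO sham replicate 1 and 5 without KO sham replicate 2. Irf1, a factor that interferon gamma induces, had log2 values of 9.01 ± 0.51 in KO I30R60 hearts and 7.13 ± 0.13 in KO sham hearts (mean and SD, n = 3 each). The change was 1.88 ± 0.25 (adjusted p = 7.49e-05), although a second probe set of the gene changed by 0.18. Irf8, a factor of myeloid cells, had 7.59, 7.10 and 7.58 in KO I30R60 hearts, against 6.23, 6.18 and 6.34 in KO sham hearts, a change of 1.17 ± 0.18 (adjusted p = 0.000486). Oasl1, an interferon-induced inhibitor of translation, had 6.53, 6.22 and 6.24 in KO I30R60 hearts, against 5.72, 5.69 and 5.63 in KO sham hearts, a change of 0.65 ± 0.10 (adjusted p = 0.000545). Ifi207, of a family of DNA sensors, had 9.53, 9.55 and 9.61 in KO I30R60 hearts, against 8.73, 8.45 and 7.88 in KO sham hearts. Its reperfused hearts were nearly equal, and the change was 1.21 ± 0.19 (adjusted p = 0.000509). Of 1157 olfactory and vomeronasal receptor genes, which occur in families of near copies, 6 rose (0.519%) and 1 fell (0.0864%), and the number that rose was 3 without KO I30R60 replicate 1, 3 without KO I30R60 replicate 2, 10 without KO I30R60 replicate 3, 2 without KO sham replicate 1, 2 without KO sham replicate 2 and 1 without KO sham replicate 3. Olfr672 had the smallest p among those that rose, with 3.04, 3.44 and 2.89 in KO I30R60 hearts, against 2.35, 2.36 and 1.97 in KO sham hearts and a change of 0.90 ± 0.15 (adjusted p = 0.00112). The gene that fell was Olfr558, with 6.25, 6.44 and 6.58 in KO I30R60 hearts, against 7.11, 7.39 and 7.10 in KO sham hearts and a change of -0.78 ± 0.12 (adjusted p = 0.00053).

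Reperfused hearts differed among themselves more in some genes than in others. The 5 called genes with the largest spread among the KO I30R60 hearts were Il1a, Kif11, Tnf, Ptx3 and Vmn2r99, with standard deviations of 0.82 to 1.11. Ptx3, which encodes the pattern recognition protein pentraxin 3, had log2 values of 7.79, 6.19 and 6.74 in KO I30R60 hearts, against 4.44, 4.16 and 3.42 in KO sham hearts, a change of 2.90 ± 0.40 (adjusted p = 0.000132). KO I30R60 replicate 1 was the highest heart in all 5. Il1a had 4.77, 3.94 and 2.57 in KO I30R60 hearts, against 2.36, 2.14 and 2.03 in KO sham hearts, a change of 1.58 ± 0.35 (adjusted p = 0.00975), and 1.08 (adjusted p = 0.0661) without KO I30R60 replicate 1. Kif11, a mitotic kinesin gene, changed by 1.17 ± 0.28 (adjusted p = 0.0182), or by 0.63 (adjusted p = 0.0448) without KO I30R60 replicate 1 and 1.09 (adjusted p = 0.0719) without KO sham replicate 2, and its other probe set by 0.25. Vmn2r99, a vomeronasal receptor gene, changed by 1.02 ± 0.28 (adjusted p = 0.038), or by 0.58 (adjusted p = 0.206) without KO I30R60 replicate 1, 1.08 (adjusted p = 0.068) without KO I30R60 replicate 3, 1.02 (adjusted p = 0.0921) without KO sham replicate 1, 1.02 (adjusted p = 0.0955) without KO sham replicate 2 and 1.02 (adjusted p = 0.0988) without KO sham replicate 3. Among called genes with at least 2-fold change, the 5 with the smallest spread, at 0.01 to 0.04, were Nfkbie, Trib1, Tifa, Mt1 and Ifi207.

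**Figure D4:**
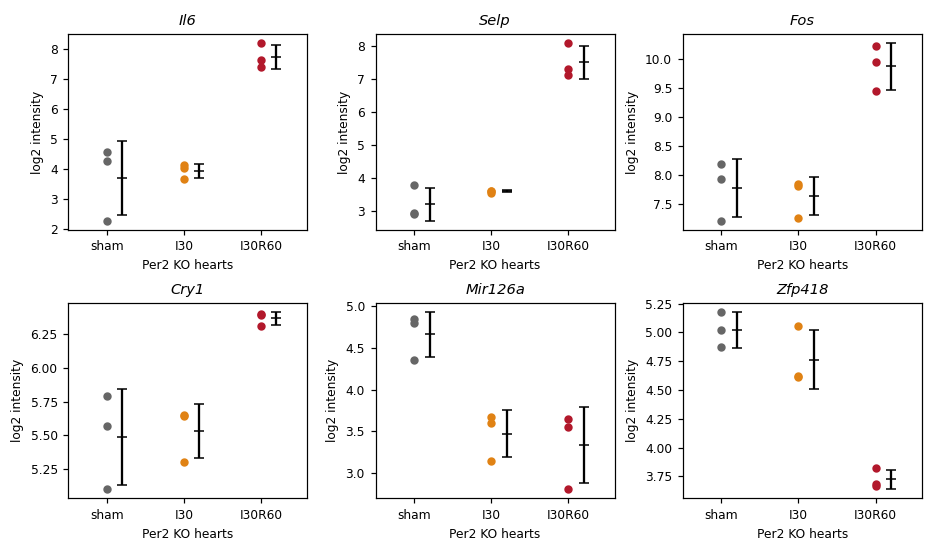
Log2 intensity of 6 genes in Per2 KO hearts in the order sham, I30 and I30R60, with 1 point per array and the mean and standard deviation (n = 3) beside the points. For Il6, Selp, Fos and Cry1 the I30 points lie among the sham points and the I30R60 points above them, and the Mir126a points of both ischemic groups lie below the sham points.

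No gene was called by limma in KO I30 against KO sham hearts (1343 of 18820, or 7.14%, at an unadjusted p under 0.05), a comparison that shares the sham arrays with the one above. Selp had log2 values of 3.60, 3.55 and 3.61 in KO I30 hearts, a change from sham of 0.39 ± 0.46 (adjusted p = 0.891). Il6 had 4.13, 4.02 and 3.67 in KO I30 hearts, a change of 0.24 ± 0.47 (adjusted p = 0.944), and Fos had 7.81, 7.85 and 7.26, a change of -0.14 ± 0.36 (adjusted p = 0.956). All of these levels lie within the range of the sham hearts given above. Cry1 had 5.30, 5.65 and 5.64 in KO I30 hearts, a change of 0.04 ± 0.16 (adjusted p = 0.976). Mir126a differed from these genes in that its KO I30 hearts, at 3.67, 3.15 and 3.60, lay below every sham heart, although the change of -1.19 ± 0.26 (adjusted p = 0.383) did not pass the test. In KO IP0 hearts, where 30 genes (0.159%) were called against KO sham hearts, Atf3 changed by 2.27 ± 0.28 (adjusted p = 0.000929), Gadd45g by 1.69 ± 0.22 (adjusted p = 0.0014) and Jun by 1.23 ± 0.18 (adjusted p = 0.0034). Mir1a-2, which fell in KO I30R60 hearts, was higher in KO IP0 than in KO sham hearts, by 1.82 ± 0.20 (adjusted p = 0.000342).

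The response was set beside that of wildtype hearts, in which 464 genes were called in I30R60 against sham hearts (2.47%), 312 higher and 152 lower. No gene passed the test of whether the response differed between genotypes (0 of 18820 in limma, with 1034 genes, or 5.49%, at an unadjusted p under 0.05). At 3 hearts a group this test recovered 68% of 2-fold differences in simulated data, so that these and smaller ones were not fully detectable. In genes of wide spread larger differences could be missed too. The median standard error of the difference was 0.19, against 0.50 for Fos. Differences of -1.40 for Fos (adjusted p = 0.888) and 1.67 for Retnlg (adjusted p = 0.896) exceed 2-fold and did not pass. The differing counts of calls do not show that the responses differ. The 5 genes with the smallest p were Snord14e, Oasl1, Abat, Nat10 and Plxna4. For Snord14e, whose call in KO hearts was lost without each of 4 arrays, the responses differed by -1.45 ± 0.27 (adjusted p = 0.448), and wildtype values were 9.49, 9.15 and 9.49 in wildtype I30R60 hearts, against 7.05, 7.37 and 6.93 in wildtype sham hearts. Oasl1 had a difference of 0.72 ± 0.15 (adjusted p = 0.448), with 5.88, 5.72 and 5.61 in wildtype I30R60 hearts, against 5.83, 5.77 and 5.82 in wildtype sham hearts. Abat, which degrades the transmitter GABA, had 6.61, 6.69 and 6.65 in KO I30R60 hearts, against 7.46, 7.73 and 7.46 in KO sham hearts, a change of -0.90 ± 0.11 (adjusted p = 4.95e-05), beside -0.12 ± 0.11 (adjusted p = 0.735) in wildtype hearts, and a difference of -0.78 ± 0.16 (adjusted p = 0.448). Nat10, an RNA acetyltransferase gene, and Plxna4, a semaphorin receptor gene, had differences of -0.53 ± 0.11 (adjusted p = 0.448) and -0.68 ± 0.14 (adjusted p = 0.448). None of these passed the adjusted test. Among the early factors, Fos and Jun rose by 3.51 ± 0.36 (adjusted p = 6.18e-06) and 2.68 ± 0.18 (adjusted p = 2.52e-08) in wildtype hearts, and their differences were -1.40 ± 0.50 (adjusted p = 0.888) and -0.85 ± 0.25 (adjusted p = 0.812). Fos had 9.98, 9.60 and 9.97 in wildtype I30R60 hearts, against 6.56, 7.28 and 5.20 in wildtype sham hearts, and wildtype sham replicate 3 was the low heart. Without the 4 arrays of the series with high Myl7 (KO sham replicate 3, KO IP0 replicate 3 and wildtype sham replicates 1 and 2), which leaves that low heart as the single wildtype sham array, the Fos difference was -2.83 (adjusted p = 0.0133) and Fos was the only gene called. Without wildtype sham replicate 3 it was -0.83 (adjusted p = 0.899).

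**Figure D5:**
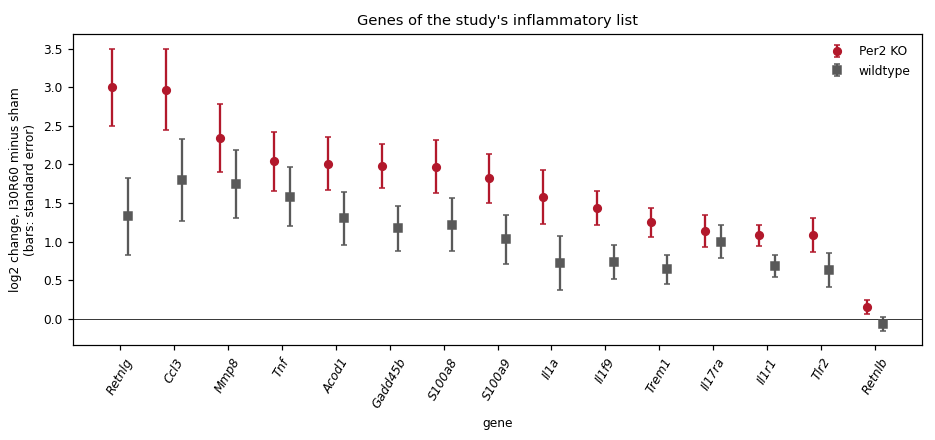
Change between I30R60 and sham hearts on the log2 scale for 15 genes, those of the study's inflammatory list and Retnlg. Per2 KO hearts are red circles (left), wildtype hearts are grey squares (right), and bars are 1 standard error. The circle lies above the square for each gene, with the largest change in Per2 KO hearts for Retnlg (3.00, against 1.33 in wildtype hearts). The study chose its list as regulated in Per2 KO hearts alone, so this order is no independent evidence.

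The inflammatory list of 15 genes holds those that the study lists for Per2 KO I30R60 hearts, and Retnlg. The study names resistin-like molecule-beta, the product of Retnlb, and does not name Retnlg, which was added here. That entry has the largest fold change of the study's list. Here Retnlg had the largest change of the list and Retnlb the smallest. Whether the study's entry is the Retnlg probe set was not tested. In this list 14 rose, none fell and 1 did not pass the test (median 1.82). But the list was drawn from these same arrays and is no independent evidence of its direction. The study chose its genes as regulated in Per2 KO but not in wildtype hearts, so the list cannot test whether the genotypes differ. In wildtype I30R60 hearts 6 of the 15 passed, all upward (median 1.03). Acod1, which makes the macrophage metabolite itaconate, had 6.09, 5.62 and 4.59 in KO I30R60 hearts, against 3.60, 3.39 and 3.28 in KO sham hearts, and rose by 2.01 ± 0.34 (adjusted p = 0.001), against 1.30 ± 0.34 (adjusted p = 0.0439) in wildtype hearts. Retnlg changed by 1.33 ± 0.50 (adjusted p = 0.208) in wildtype hearts, and the difference between the responses was 1.67 ± 0.70 (adjusted p = 0.896). Trem1, which amplifies signals of innate receptors, had 3.31, 3.40 and 4.22 in KO I30R60 hearts, against 2.32, 2.40 and 2.44 in KO sham hearts, a change of 1.25 ± 0.19 (adjusted p = 0.000378), and the genotypes differed by 0.62 ± 0.27 (adjusted p = 0.896), or by 0.33 (adjusted p = 0.924) without KO I30R60 replicate 3. Il17ra and Tlr2 rose by 1.14 ± 0.21 (adjusted p = 0.00255) and 1.08 ± 0.22 (adjusted p = 0.00583), against 1.00 ± 0.21 (adjusted p = 0.0104) and 0.63 ± 0.22 (adjusted p = 0.173) in wildtype hearts. Il1f9, which encodes interleukin 36 gamma, rose by 1.44 ± 0.22 (adjusted p = 0.000376). The gene that did not pass was Retnlb, with 1.94, 2.05 and 1.99 in KO I30R60 hearts, against 1.87, 1.83 and 1.83 in KO sham hearts and a change of 0.15 ± 0.09 (adjusted p = 0.381). The summed neutrophil markers that rose beside this list in KO hearts also contain 5 of its members (Retnlg, Mmp8, S100a8, S100a9 and Trem1), and 4 of the neutrophil markers rose in wildtype hearts. The study also lists 9 genes for metabolism in wildtype I30R60 hearts, likewise drawn from these arrays. Of these, 6 rose, none fell and 3 did not pass the test in KO hearts (median 0.95). In wildtype hearts 8 rose and 1 fell (median 1.46). The study chose them as regulated in wildtype but not in Per2 KO hearts, so the lower count in KO hearts is no independent evidence. The number that rose in KO hearts was 1 without KO I30R60 replicate 1 and 0 without KO sham replicate 3. Nts, Nr4a3 and Ptgs2 changed by 0.70 ± 0.16 (adjusted p = 0.0116), 1.22 ± 0.30 (adjusted p = 0.0229) and 1.65 ± 0.38 (adjusted p = 0.0142) in KO hearts, and without KO sham replicate 3 by 0.64 (adjusted p = 0.0602), 0.89 (adjusted p = 0.135) and 1.00 (adjusted p = 0.0658). The calls of Nr4a3 and Ptgs2 were also lost without KO I30R60 replicate 1 (adjusted p = 0.0764 and 0.0594), and that of Nr4a3 without KO I30R60 replicate 3 (adjusted p = 0.0721). Il1b, the gene of interleukin 1 beta, changed by 1.48 ± 0.39 (adjusted p = 0.0345) in KO hearts, or by 1.07 (adjusted p = 0.188) without KO I30R60 replicate 1 and 1.00 (adjusted p = 0.186) without KO sham replicate 3. Slc5a3, a myo-inositol transporter gene, changed by 1.00 ± 0.27 (adjusted p = 0.0355), or by 0.66 (adjusted p = 0.203) without KO I30R60 replicate 1, 1.09 (adjusted p = 0.0548) without KO I30R60 replicate 3, 0.91 (adjusted p = 0.123) without KO sham replicate 2 and 0.90 (adjusted p = 0.132) without KO sham replicate 3. Ccn2, which encodes connective tissue growth factor, changed by 0.95 ± 0.22 (adjusted p = 0.0141), or by 0.84 (adjusted p = 0.0812) without KO I30R60 replicate 1 and 0.68 (adjusted p = 0.0954) without KO sham replicate 3. The 3 that did not pass were Nr4a1, given above, Nr4a2, another orphan nuclear receptor gene, and Ehhadh, an enzyme gene of peroxisomal fatty acid oxidation. Nr4a2 had 7.66, 6.92 and 7.20 in KO I30R60 hearts, against 6.52, 6.99 and 6.61 in KO sham hearts, a change of 0.56 ± 0.24 (adjusted p = 0.234), against 1.46 ± 0.24 (adjusted p = 0.00158) in wildtype hearts. Ehhadh had 5.91, 6.14 and 5.70 in KO I30R60 hearts, against 6.51, 6.65 and 6.29 in KO sham hearts. Its reperfused hearts were below its sham hearts, with a change of -0.57 ± 0.20 (adjusted p = 0.121), and it was the gene of this list that fell in wildtype hearts, with a change of -1.01 ± 0.20 (adjusted p = 0.00656).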

How the data were processed

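RNA from the left ventricles of 24 mice was hybridized to Affymetrix Mouse Gene ST arrays, 3 in each of 8 groups, and all groups were taken from the sample labels. Values were used as deposited. They are log2 intensities that the authors made from the scanner files in the Partek software by robust multi-array average (RMA), which subtracts background, sets the arrays to a common distribution and summarizes the probes of a probe set. RMA compresses small and low signals, and no detection calls came with the values, so that dim probe sets could not be separated from background. Of 35555 probe sets, 21218 were paired with 1 gene symbol in the platform annotation, 1881 with several and 12456 were not listed there.

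For each of 18820 genes the brightest probe set, by its mean level on all 24 arrays, was kept. A group-mean model over all 24 arrays was fitted with limma 3.58.1 in R 4.3.3, contrasts were tested with moderated statistics, and p-values were adjusted over all genes by the Benjamini-Hochberg method, with a gene called at an adjusted p under 0.05. The model shares the spread between arrays over the 8 groups. The study's methods name no test for the arrays, and its t-test was run as an alternative. According to the methods each array is 1 animal, and the p-values measure the spread between these arrays. The number of arrays limits the precision: in simulated data with 200 changed genes the main test recovered 38%, 86%, 98% and 98% of changes of 1.5, 2, 3 and 4-fold, with 4 unchanged genes called, and the test of the difference between genotypes recovered 22%, 68%, 92% and 96%.

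The members and gene lists were chosen with earlier results of these data known. Named genes were taken from the 25 largest rises and 15 largest falls with groups that do not overlap, and from up to 8 members of each list with the smallest p. They were also taken from the study's lists, the 5 smallest p of the genotype difference and the 8 microRNA genes with the smallest p. The rest were the genes with the 5 largest and 5 smallest spreads, and Per2. Genes outside this rule (Zfp948, Asb4, Dennd4a and genes that span small RNAs) were named after their values were seen. Promoters and microRNAs came from RefSeq tables of GRCm38.p6. The sums of marker lists were formed on the linear scale and are given as log2. Alternatives were other normalizations, weights, filters, probe set choices, subsets of arrays, a block for the replicate number and leaving out each array in turn.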

Additional observations from a re-analysis of the deposited data

Results flagged for a closer look

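Outside the genes tested, 130 of 14337 probe sets that were paired with several symbols or not listed in the platform annotation passed the same test in KO I30R60 against KO sham hearts, beside 634 of 21218 probe sets with 1 symbol in the same fit over all probe sets. They were singled out because the report's comparison does not use them. They carry no single gene name here, and which transcripts they measure was not tested.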

How the results depend on the processing

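The main test called 901 genes, 202 of them with at least 2-fold change. With trend and robust options, array weights, median centring, quantile normalization, the mean of a gene's probe sets or the probe set with the highest variance, it called 794 to 1064 genes and 191 to 216 with at least 2-fold change. With only the 12 Per2 KO arrays it called 646, and with only the 6 arrays compared 310, which leaves fewer samples to estimate the spread. Restricted to genes whose mean was at least the median of all values, it called 580 rises and 662 falls among 10561 genes. The methods' t-test with adjustment called 3 genes, all with at least 2-fold change (Asb4, Dennd4a and Tifa), and 2593 at its own unadjusted threshold. Without the 4 arrays with high Myl7 it called 470 genes and 1 genotype difference, that of Fos, and the cause was not tested. Leaving out 1 array gave 475 to 758 calls, 154 to 230 calls with at least 2-fold change, and 0 genotype differences. The replicate numbers do not pair the arrays: the deviations of the compared groups correlated at 0.07, -0.03 and -0.02 between arrays of the same number. With the number as a block the counts were 857, 203 and 0, and 812 calls were shared with the main test. The alternatives were followed for 146 of the genes named in the text, without Adam19 and 0610038B21Rik. Of these 146, 136 were called, and 87 of them kept their call in all alternatives except the t-test, which lost 133. None of the 146 changed direction in any of these alternatives. The NF-kB share of the promoters of genes that rose at least 2-fold was 15.6% with the form chosen first. It was 20.4% with the consensus, which was chosen after seeing the data. Precision is limited by 3 arrays a group and by the lack of detection calls for dim probe sets.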
